A study of Homo sapiens with 2 samples.

Results

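The circular RNAs (circRNAs) of the host genes ATXN7 and ATXN10 were taken from the deposited table as every row whose host field, split at commas, names either gene. There were 10 of them among 1485 circRNAs, 4 from ATXN7 and 6 from ATXN10. SW620, a cell line from a lymph node metastasis of a colorectal adenocarcinoma, was profiled in 1 library of cells given Hedyotis diffusa-Sculellaria barbata (HD-SB, a herb pair) at 1 mg/mL for 24 h and in 1 library labelled Control. In both libraries ribosomal RNA was removed and linear RNA was digested with RNase R. The HD-SB library held 11570 listed reads on 1475 circRNAs and the Control library 91 on 32, and with 1 library per group nothing below has a replicate error or a test. Both genes were chosen by their HD-SB reads and number of circles, so those values describe them and support nothing further.

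A circRNA forms when a splice donor is joined to an acceptor that lies upstream of it, and only reads across that back-splice junction count it. ATXN7 encodes ataxin-7, which anchors the deubiquitinase module of the SAGA transcription coactivator, and a CAG repeat in its coding sequence expands in a form of spinocerebellar ataxia with retinal degeneration. ATXN10 encodes ataxin-10, a cytoplasmic protein of armadillo-like repeats, and a pentanucleotide repeat in one of its introns expands in another spinocerebellar ataxia. The genes share a disease class and a name, and their proteins belong to different families.

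The sequences that identify these circles are the junctions themselves. They are printed 5′ to 3′ from GENCODE 29 transcripts, with the last 15 bases of the donor exon in lower case and the first 15 of the acceptor exon in capitals, for the 8 circRNAs with annotated exons on both sides. Exon numbers follow transcripts ATXN7-212 and ATXN10-201.
hsa_circ_0007761, ATXN7 exon 4 to exon 3: ggctctgtcgggaagGAGCGGAAAGAATGT
hsa_circ_0002634, ATXN7 exon 5 to exon 2: ttcaatcacattatgATCTGAACAGAATTA
hsa_circ_0001988, ATXN7 exon 4 to exon 2: ggctctgtcgggaagATCTGAACAGAATTA
hsa_circ_0066434, ATXN7 exon 5 to exon 3: ttcaatcacattatgGAGCGGAAAGAATGT
hsa_circ_0001247, ATXN10 exon 9 to exon 7: gataaccaagacaagAGTTACACTGTTAGA
hsa_circ_0003054, ATXN10 exon 6 to exon 2: gaacaatcaagaaagAGAAACAGCACCCAG
hsa_circ_0004243, ATXN10 exon 5 to exon 2: tgaatcagaatggccAGAAACAGCACCCAG
hsa_circ_0003303, ATXN10 exon 6 to exon 4: gaacaatcaagaaagCTTTTCGCTGTGGCC
The ATXN7 set is built from 2 donor ends and 2 acceptor starts, whereas the most abundant ATXN10 junction has no end in common with the others.

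These exons were assigned by distances between boundaries and not by position. GRCh38 is named in the submitters' processing notes, yet 0 of the 4 distinct ATXN7 boundaries and 0 of the 9 distinct ATXN10 boundaries lie on exon edges of the GRCh38 annotation as deposited. With 1 common shift per gene, 4 of 4 ATXN7 boundaries and 7 of 9 ATXN10 boundaries fell on exon edges, and the next best shift gave 1 in each gene. In 133 other hosts with at least 4 boundaries, 1.59% of 630 boundaries lay on exon edges without a shift and 94.8% did with the best shift of each host. Positions are therefore printed as the table gives them, with no build named, and no position was carried from one build to another.

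ATXN7 gave 227 reads in the HD-SB library, 1.96% of its listed reads (exact Clopper-Pearson 95% interval 1.72 to 2.23, as all intervals here, covering counting error only). That was the second highest total among 1099 protein-coding hosts, whose median was 5 reads. ATXN10 gave 86 reads, 0.743% (0.595 to 0.917), which ranked 13. Together the 10 circRNAs held 313 reads or 2.71% (2.42 to 3.02) of the HD-SB library. The Control library listed no circRNA of either gene.

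A single circRNA made up most of the ATXN7 signal. It was hsa_circ_0007761 (chromosome 3, 63898264 to 63898901, exons 3 to 4), with 211 reads or 18237 CPM (reads per 1000000 listed back-splice reads) in HD-SB, and it was not listed in Control. It ranked 2 among all circRNAs of the HD-SB library and held 93.0% (88.8 to 95.9) of the ATXN7 reads. The remaining members of this host had 9 reads or 778 CPM (hsa_circ_0002634, 63884075 to 63938159, exons 2 to 5), 5 reads or 432 CPM (hsa_circ_0001988, 63884075 to 63898901, exons 2 to 4) and 2 reads or 173 CPM (hsa_circ_0066434, 63898264 to 63938159, exons 3 to 5) in HD-SB. None of these was listed in Control.

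The abundant ATXN7 circle was also the shortest of the 4 on the genome. It spans 638 bp, against 14827, 39896 and 54085 bp for the others and a median of 4076 bp over the HD-SB list. With its single intron of 233 bp removed it would measure 405 nucleotides. Its outer edges face intron 2, of 14090 bp, and intron 4, of 39153 bp, which is the longest intron of ATXN7-212. Whether the introns inside these circles are spliced out, and whether inner exons are kept, was not measured, since only the junction was counted.

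Exon 3 of ATXN7 carries the start codon and the CAG repeat, and it lies within the span of all 4 ATXN7 circles. In hsa_circ_0001988 and hsa_circ_0002634 it is an inner exon, and whether those circles keep it was not measured. The reference coding sequence is shown from the start codon for 144 bases, with the CAG repeat in capitals, because the same stretch lies in the abundant circle:
ATXN7 exon 3, GENCODE 29: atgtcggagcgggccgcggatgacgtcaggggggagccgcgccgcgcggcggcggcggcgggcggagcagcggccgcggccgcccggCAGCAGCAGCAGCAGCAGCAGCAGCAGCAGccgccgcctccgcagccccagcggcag
The reference has 10 CAG units, at codons 30 to 39. The repeat length in SW620 cells was not measured here, as the deposited values hold no sequence.

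With introns removed and every annotated exon between the edges kept, the 4 ATXN7 circles would measure 405, 609, 504 and 510 nucleotides. These lengths, in order of reads, are all multiples of 3. Read from the annotated start codon round the back-splice junction, the circles that start at exon 3 (hsa_circ_0007761 and hsa_circ_0066434) hold no in-frame stop codon. Those that start at exon 2 reach a stop after 151 codons (hsa_circ_0001988) and 186 codons (hsa_circ_0002634). This describes the reference sequence with all annotated exons kept, and neither the use of inner exons nor translation was measured. Of the 405 nucleotides of the abundant circle, 394 are coding in the linear mRNA.

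The 4 ATXN7 circles use every combination of 2 starts and 2 ends, and the reads were unevenly spread over them. Of 213 HD-SB reads with the exon 3 start, 99.1% (96.6 to 99.9) ended at exon 4 and 0.939% (0.114 to 3.35) at exon 5. Of 14 reads with the exon 2 start, 35.7% (12.8 to 64.9) ended at exon 4 and 64.3% (35.1 to 87.2) at exon 5. Of the 213 reads with the exon 3 start, 211 are those of the dominant circle, and ATXN7 was chosen by its HD-SB reads. Nothing is therefore read from the difference between the starts. By edge, the exon 3 start carried 93.8% of ATXN7 reads and the exon 4 end 95.2%. Amplified reads are not independent molecules, so these intervals are too narrow by an unknown amount.

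**Figure D1:**
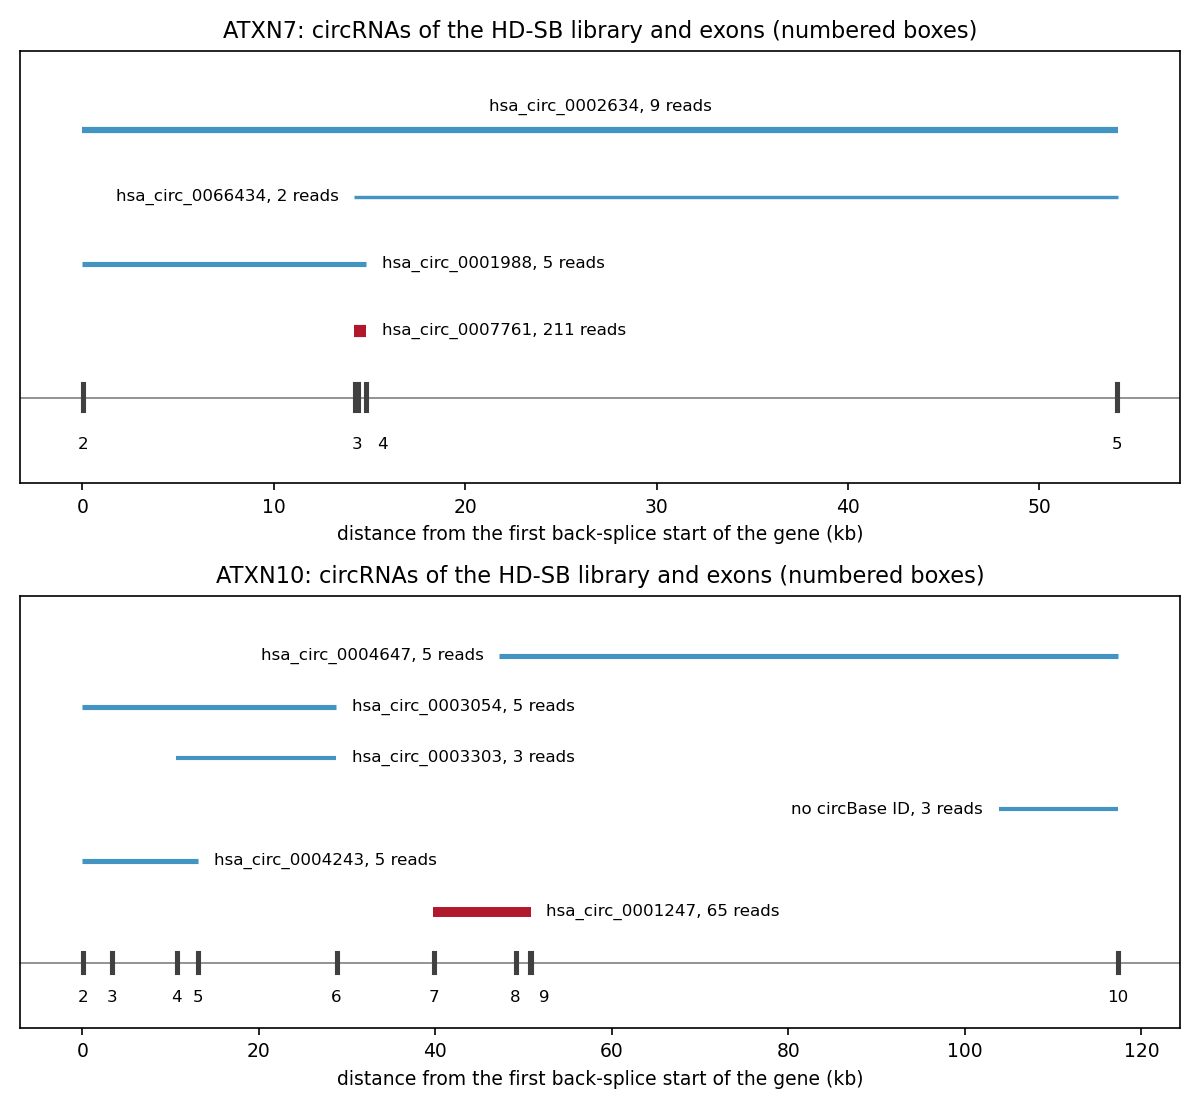
Each bar is 1 circRNA drawn from its back-splice start to its end, in kb from the first start of the gene, thicker with more HD-SB reads (printed beside it), the most abundant in red, with exons of the reference transcript as numbered boxes below. ATXN7 bars (top) all cover exon 3 and share their edges, and the 638 bp circle has 211 reads. Of the ATXN10 bars (bottom), 3 lie upstream of the red one, which runs from exon 7 to exon 9 and has 65 reads, and hsa_circ_0004647 overlaps its end.

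ATXN10 was led by hsa_circ_0001247 (chromosome 22, 46125305 to 46136418, exons 7 to 9), with 65 reads or 5618 CPM in HD-SB and no listing in Control. It ranked 16 in the HD-SB library and held 75.6% (65.1 to 84.2) of the ATXN10 reads. Each of hsa_circ_0003054 (46085592 to 46114373, exons 2 to 6), hsa_circ_0004243 (46085592 to 46098727, exons 2 to 5) and hsa_circ_0004647 (46132848 to 46202902) had 5 reads or 432 CPM in HD-SB. Each of hsa_circ_0003303 (46096162 to 46114373, exons 4 to 6) and a circRNA with no circBase identifier (46189425 to 46202902) had 3 reads or 259 CPM. None of these 5 was listed in Control, and with 3 to 5 reads their intervals overlap one another.

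The ATXN10 circles were spread over more of the gene. Upstream, 3 circles with 13 reads in all run within exons 2 to 6 and stop before intron 6, of 10931 bp, which separates them from the exon 7 to 9 circle. Beyond it, 2 circles with 8 reads in all share the end of exon 10, and hsa_circ_0004647, the longer of them, starts inside the exon 7 to 9 circle and overlaps it by 3571 bp. Of 15 pairs of ATXN10 circles, 5 overlapped and 3 shared an edge, whereas of 6 pairs of ATXN7 circles all 6 overlapped and 4 shared an edge. The span of hsa_circ_0001247 is 11114 bp. With introns removed and exons 7 to 9 all kept, it would measure 445 nucleotides. All of these are coding in the linear mRNA, and their number is not a multiple of 3.

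The starts of the circles that end at exon 10 fall on no annotated exon edge and lie, by distance, in intron 7 (hsa_circ_0004647) and in intron 9 (the circle without an identifier), which span 9140 and 66420 bp. Intron 9 is the longest of ATXN10-201 and is where the pentanucleotide repeat of ATXN10 is known to lie. Whether the 13478 bp circle contains that repeat was not analysed here. Both rows also name Y_RNA as a host, a class of small noncoding RNA with many genomic copies, so the host field does not give their 8 reads to ATXN10 alone. Both circles nevertheless end, by distance, at the edge of exon 10 of ATXN10-201. Without those 8 reads ATXN10 held 0.674% of HD-SB reads.

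The comparison of HD-SB with Control asks which circRNAs differ after treatment, and for these genes the depth of the Control library did not allow an answer. A circRNA enters the table with 2 reads, so absence from the Control list means 0 or 1 read. For a count of 0, 3 reads of 91 (3.30%) is an approximate upper limit of the Control share. The upper end of the exact 95% interval is 3.97% at 0 reads and 5.97% at 1 read. The most abundant member, at 1.82% (1.59 to 2.08) in HD-SB, lies below all of these limits, so a difference was not detectable and a fold between the read shares is not given. At their HD-SB shares, 91 reads would hold 1.79 reads of ATXN7 and 0.676 of ATXN10 on average.

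Of all 1485 circRNAs, 97.8% were listed in HD-SB and not in Control, and the 10 members share that listing. On the scale log2((HD-SB + 172.861)/(Control + 172.861)) in CPM, 7 of the 10 passed a filter at a mean of 216 CPM, through their HD-SB value alone. With no Control listing a circRNA that passes this filter must exceed 2-fold on this scale, so nothing is read from the 7, and 96.0% of the 797 circRNAs that passed did so. The value on this scale was 6.73 for hsa_circ_0007761 and 5.07 for hsa_circ_0001247, and with no Control listing the pseudocount fixes that ratio. With 0.5 read added in each library the values were 1.73 and 0.043. The members below the filter, with 2, 3 and 3 reads, were hsa_circ_0066434, hsa_circ_0003303 and the circle without an identifier.

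**Figure D2:**
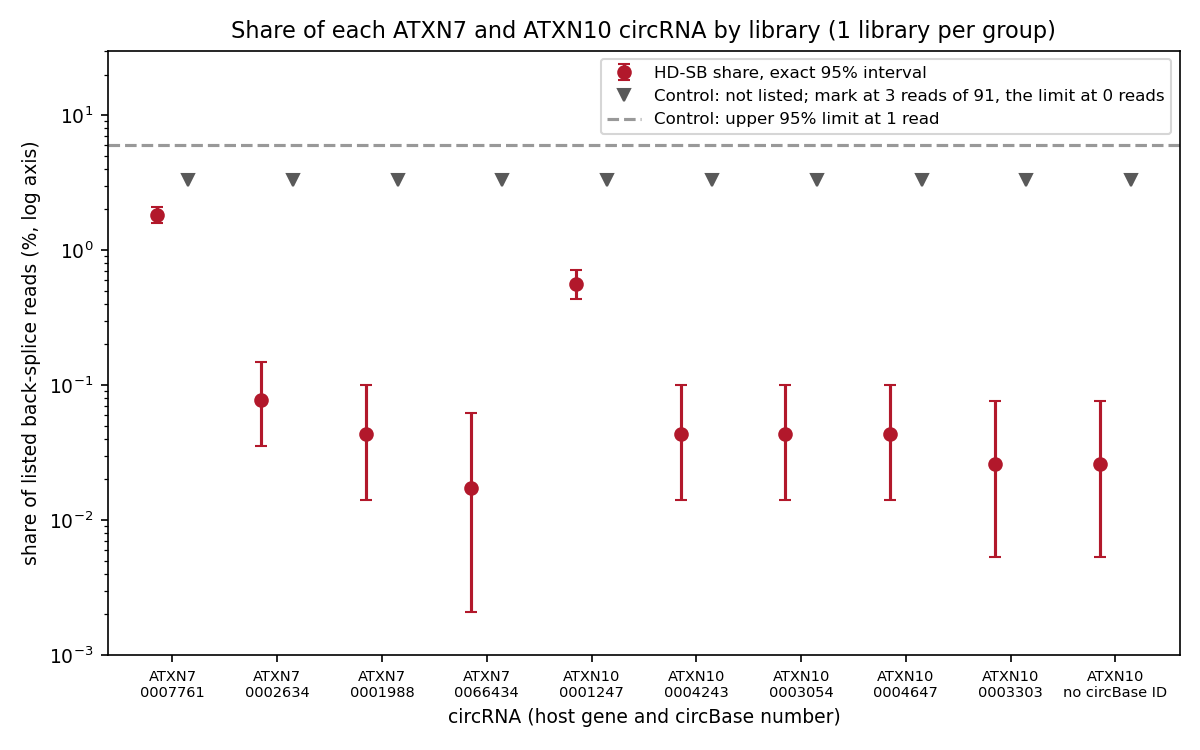
Share of the listed back-splice reads of a library (percent, log axis) for each of the 10 circRNAs. Red points are HD-SB with exact 95% intervals. Grey triangles mark 3 of 91 reads (3.30%), an approximate Control limit at a count of 0, where the exact limit is 3.97%. The dashed line is the exact upper limit at 1 Control read (5.97%). All 10 HD-SB values lie below the triangles and the line.

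Concentration on 1 circle was high for both genes relative to most hosts with several circles. There were 26 protein-coding hosts with at least 4 circRNAs. The top circle held a median of 43.1% of host reads in the 24 other than ATXN7 and ATXN10, with a range of 23.5% to 89.4%. Those 24 hosts had a median of 28.5 HD-SB reads, fewer than either gene, and hosts were not matched in reads. ATXN7 had the highest value of the 26 and ATXN10 the fifth, behind UBAP2 at 89.4% (79.4 to 95.6), PRKAR1B at 83.1% (75.0 to 89.3) and RBM33 at 81.0% (74.2 to 86.6). Among the hosts with at least 50 reads, ATXN10 stood mid-list. Below it were LRP5 (68.3%), ZNF124 (68.0%), TBCD (29.3%) and MAD1L1 (23.5%). The interval of ATXN7 overlapped those of UBAP2 and PRKAR1B. That of ATXN10 (65.1 to 84.2) overlapped those of UBAP2, PRKAR1B and RBM33 and of lower hosts, among them LRP5 (59.3 to 76.4) and ZNF124 (53.3 to 80.5). The order of ATXN7 against UBAP2 and PRKAR1B, and of ATXN10 against the hosts it overlapped, is therefore not resolved. The ATXN7 interval (88.8 to 95.9), covering counting error only, did not reach those of RBM33, ATXN10, LRP5 or ZNF124. The position of ATXN7 and ATXN10 was not tested because their values had led to their choice.

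**Figure D3:**
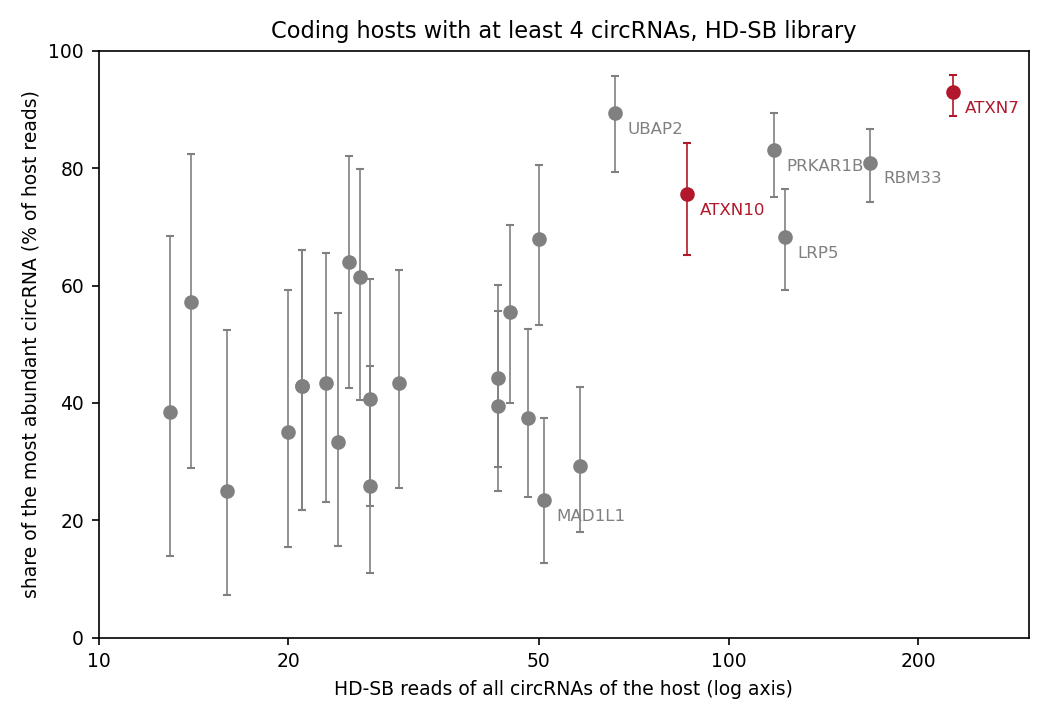
HD-SB reads of all circRNAs of a host (log axis) against the share held by its most abundant circRNA (percent of host reads, exact 95% intervals), for 26 protein-coding hosts with at least 4 circRNAs. ATXN7 (227 reads, 93.0%) and ATXN10 (86 reads, 75.6%) are in red, and MAD1L1 has the lowest share, 23.5%.

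The hosts nearest to ATXN7 in total reads with at least as many circRNAs were RBM33, an RNA-binding protein, with 168 HD-SB reads on 6 circRNAs, and LRP5, a Wnt co-receptor, with 123 reads on 6. RBM33 also had 5 Control reads and LRP5 had none listed. For ATXN10 they were MAD1L1, a mitotic checkpoint protein, with 51 reads on 7 circRNAs and a top share of 23.5% (12.8 to 37.5), and LRP5, with a top share of 68.3% (59.3 to 76.4).

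Among single circRNAs, the ones next to hsa_circ_0007761 in HD-SB reads were GCN1L1 (hsa_circ_0000448) above with 373 reads, and LRP5L (hsa_circ_0003102) and RBM33 (hsa_circ_0001772) below with 142 and 136. Their shares were 3.22% (2.91 to 3.56), 1.23% (1.03 to 1.45) and 1.18% (0.987 to 1.39), and none of these intervals reached that of ATXN7. Around hsa_circ_0001247 stood ABHD2 with 79 reads, RSRC1 with 68, ZNF81 with 63 and UBAP2 with 59. All of these intervals overlapped that of ATXN10, so the order among them is not resolved. RSRC1 had 4 Control reads and UBAP2 had 3, whereas ABHD2 and ZNF81 were not listed there.

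Of 23 other genes of the SAGA complex, 2 (8.70%) were hosts in the HD-SB library, with 3 circRNAs and 19 reads in all. Of 19936 annotated coding genes, 5.51% were hosts in the table, and with counts this small nothing is read from the difference. The SAGA hosts were SF3B3, a splicing factor subunit that is also found in SAGA, with 12 reads (hsa_circ_0009163, chromosome 16, 70598968 to 70601439) and 3 reads (70601314 to 70602398), and TAF6L, a core subunit, with 4 reads (hsa_circ_0006855, chromosome 11, 62549366 to 62550297). USP22, the deubiquitinase that ATXN7 anchors, ATXN7L3 and ENY2 had no circRNA in the table. The median was 4 reads per circRNA, against 5 over the HD-SB list, and none was listed in Control.

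Of 25 other genes of repeat expansion disorders and their paralogs, 2 (8%) were hosts, beside the same 5.51% of coding genes, with 22 HD-SB reads in all and no listed Control read. ATXN2, which encodes an RNA-binding ataxin with its own CAG repeat, gave 20 reads or 1729 CPM on hsa_circ_0002457 (chromosome 12, 111990084 to 111993723), 0.173% (0.106 to 0.267). RFC1, the large subunit of the replication clamp loader, gave 2 reads. ATXN1, ATXN3 and HTT had no circRNA in the table, which does not show that these genes were silent.

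The hosts are too sparse to check the label of the cells firmly. Of 14 colon epithelium markers, VIL1 (18 reads), EPHB2 (16 reads) and EPCAM (3 circRNAs, 20 reads) were hosts in HD-SB and none in Control, 21.4% of the list beside 5.51% of coding genes. The fibroblast and smooth muscle, leukocyte and endothelial markers, 7, 5 and 4 genes, gave 0 circRNAs, which at that share of hosts says little for so few genes. CDX2, CDH1 and KRT20 also gave none, and a gene without a listed circRNA may still be expressed.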

How the data were processed

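One SW620 library per group was analysed, so no test was made. Neither the circRNA caller nor its filters or duplicate removal is given in the sources used here. FastQC, HISAT2 2.1.0 and GRCh38 are named without a role in the submitters' processing notes. Headed TPM per the file headers, the deposited values behave as CPM. Each column sums to 1000000, and within 0.01 every listed value (100%) was a whole multiple of 1 step per library, 86.4 CPM in HD-SB and 10989 CPM in Control, whatever the span. Values were divided by that step to give reads (smallest listed 2). The value 0.001 was read as not listed, so the totals lack the reads of circRNAs below the listing minimum.

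Members, gene lists and comparisons were chosen with earlier results of these data known. Named were all members, all circRNAs of the SAGA and repeat disorder lists, the 2 circRNAs on each side of each dominant one in HD-SB reads, and the 2 hosts nearest in reads with at least as many circRNAs. Restricting those hosts to protein-coding genes, which leaves out small-RNA names, was added after the values were seen, as were the exon match, the reading frames, the comparison of top shares and the host lists' match to older symbols through RefSeq synonyms. UBAP2, PRKAR1B, ZNF124 and TBCD as hosts, and the markers and list genes named for having no circRNA, were picked after their values were seen. The same holds for the bound of 50 reads among hosts.

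Exon edges came from GENCODE 29 and junction and coding sequences from its transcripts. The transcript was the principal CCDS transcript sharing most edges. Intervals are exact binomial at 95% (scipy 1.17.1, Python 3.11.15), and the recovery of reads and the intervals were tested on simulated data. Those reads were drawn independently at HD-SB proportions, for Control at a larger total than that library holds. The simulation therefore does not cover amplified reads. The pseudocount of 172.861 CPM was the 5th percentile of listed values, and the filter was the median of the 2-library means. The series' named circRNA was not analysed here.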

Additional observations from a re-analysis of the deposited data

How the results depend on the processing

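The 91 Control reads limit every comparison, and there is no replicate for any value. The ATXN7 share of HD-SB reads was 1.96% and came to 2.34% over circRNAs with a circBase identifier alone and 2.37% over those with at least 5 reads, which take more reads from the denominator than from ATXN7. Its reads were 2.26% of those left without the 10 most abundant circRNAs, which include hsa_circ_0007761, so this value is a ratio and not a share. The ATXN10 share stayed between 0.674% and 0.857% under those settings and with rows naming ATXN10 alone, within its interval. The top circle's share of host reads also stayed within its interval, at 93.0% to 93.8% for ATXN7 and 75.6% to 81.25% for ATXN10. The log2 ratio of the dominant circRNA became 4.77 (ATXN7) and 3.19 (ATXN10) with a pseudocount 4 times larger, 8.72 and 7.03 with one 4 times smaller, and 1.73 and 0.043 with 0.5 read in each library. Median-ratio scaling left both unchanged, as the Control value is not listed. The number of circRNAs higher in HD-SB by 2-fold or more, 765, became 296 with the larger pseudocount, 4 with 0.5 read, 1453 with no filter and 366 in the top 25% of means, and were 765 with the smaller pseudocount and 771 under median-ratio scaling. The pseudocount sets ratios of circRNAs listed in 1 library by construction. No paired analysis was possible because there is a single library per group.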

Other observations

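Among the 26 protein-coding hosts with at least 4 circRNAs, 2 (7.69%) had a complete set of circles over 2 starts and 2 ends. They were ATXN7 and RPH3AL, which encodes a rabphilin-like protein without C2 domains. The 4 RPH3AL circles (chromosome 17) had 17 reads (169211 to 177370), 11 reads (131559 to 171206), 8 reads (131559 to 177370) and 7 reads (169211 to 171206) in HD-SB, and none was listed in Control. There the shortest circle, of 1996 bp, had the fewest reads, but with 7 reads beside 8 for the next its place is not resolved. In ATXN7, which was chosen by its HD-SB reads, the shortest had the most. Nothing is therefore read from the contrast.

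The study's design names hsa-miR-204-5p, whose mature sequence from RefSeq (GRCh38.p14) is shown here with the seed, bases 2 to 8, in capitals.
hsa-miR-204-5p: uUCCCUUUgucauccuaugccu
The complement of that seed, AAAGGGA, was searched for on the sense strand of the 8 ATXN7 and ATXN10 circles with annotated exons. Their reference sequence was used, with introns removed and all annotated exons kept, and read round the junction. It was found in 0 of them. In windows of the same lengths from the middle of the longest coding transcript of each gene, 3.40% to 6.22% held it. The search says only that these letters are not in that reference sequence of the 8 circles, whose inner sequence was not measured. At such background shares 0 of 8 says little.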
